A study of Mus musculus with 2 samples.

Results

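The genes described here encode the kinesin superfamily motors, proteins that bind microtubules and use ATP to walk along them or to shorten their ends. They were chosen by symbol, as every gene named Kif with a digit and an optional letter, plus Kifc1, Kifc2 and Kifc3. The array named 40 of them through 103 probe sets, out of 18193 genes named by a single symbol. By known role they fall into 12 mitotic kinesins, 15 transport kinesins and 13 others.

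The cells were mouse embryonic fibroblasts (MEFs), taken from embryos and grown in culture. Those of the p27delta51 group carried the p27delta51 allele of Cdkn1b, and those of the comparison group were wild type. Both grew in medium with 10% fetal bovine serum, then spent 72 h without serum, which drives fibroblasts out of the division cycle. Total RNA of each genotype was labelled with biotin and hybridised to 1 array, and the sources used here do not say whether it came from 1 embryo or from several. The product of Cdkn1b, p27, holds cyclin-dependent kinases in check, and p27delta51 is known as a deletion in the region that does so. The comparison addresses which transcripts differ with this allele after serum withdrawal. With 1 array per genotype no test was made and no SD can be given, so every difference below describes these 2 arrays. The allele cannot be told apart from other differences between the cultures. One such difference is in sex-linked transcripts. Xist, the X-inactivation transcript, gave 876 in p27delta51 against 25.8 in wild type in its brightest probe set. The Y-linked genes Eif2s3y and Kdm5d gave 6.9 and 1.2 in p27delta51, below the floor set by control probe sets, against 425 and 213 in wild type. This difference runs through every comparison below, and its part in them was not tested.

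Kinesins share a motor domain, and what lies outside it decides what each one carries or moves. Mitotic kinesins push the spindle poles apart, move chromosomes to the middle of the cell and build the midzone where the cell divides, and their genes are known to be transcribed mainly in G2 and M phase. Transport kinesins haul vesicles, mitochondria and other cargo along microtubules, most of them outward, also in cells that do not divide. The late cell cycle genes are known to be held off in quiescent cells by the DREAM complex, which binds a promoter element named CHR, the cell cycle genes homology region.

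Signals are linear intensities, with a median over 45101 probe sets of 22.2 in p27delta51 against 21.2 in wild type. Each gene was read from its probe set with the highest mean signal, and 11159 genes whose mean reached 22.2, the median of all probe set means, were kept. A floor was set by bacterial control probe sets at 14.8 for p27delta51 and 11.8 for wild type. Of the 40 kinesin genes 28 were kept, and 27 of these reached 22.2 on both arrays. The exception was Kif5c, which passed only through its p27delta51 signal. The altered gene has 2 probe sets, and they differ in direction. Cdkn1b gave 1.6 in p27delta51 against 62.0 in wild type in one, and 1016 in p27delta51 against 542 in wild type in the other. Neither could be placed inside or outside the deletion, so they do not check the label. All 7 fibroblast markers were above the floor on both arrays, with a summed signal of 44651 in p27delta51 against 41203 in wild type. Thy1, a surface protein of many fibroblasts, was near the floor in p27delta51, at 18.6 against 279 in wild type.

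Kinesins of the spindle and of cell division were higher in p27delta51 cells, while transport kinesins lay on both sides of no difference. All 10 kept mitotic kinesins had the higher signal in p27delta51, 7 by 2-fold or more. Over all kept genes, 55.6% were higher in p27delta51 at any size and 10.8% at least 2-fold. The median log2 difference of the mitotic group was 1.22, with a range of 0.40 to 2.28, beside 0.08 over all kept genes. Transport kinesins had 6 of 11 kept members higher and 5 lower, with a median of 0.08, and 44.3% of all kept genes were lower at any size. Counted among the 6, and in that median, is Kif5c, which did not reach the limit in wild type. At the looser threshold of 1.5-fold, 9 mitotic, 2 transport and 1 other kinesin were higher, beside 21.7% of all kept genes, and 0, 3 and 1 were lower, beside 15.9%. At 3-fold, 2 mitotic kinesins and 1 transport kinesin were higher, beside 4.78% of all kept genes, and no kinesin was lower, beside 5.21%. That transport kinesin was Kif5c, which was kept only through its p27delta51 signal. The medians of the 2 groups were 1.15 apart on the log2 scale. In bulk RNA, more cells in the division cycle and more RNA per cell cannot be told apart.

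**Figure D1:**
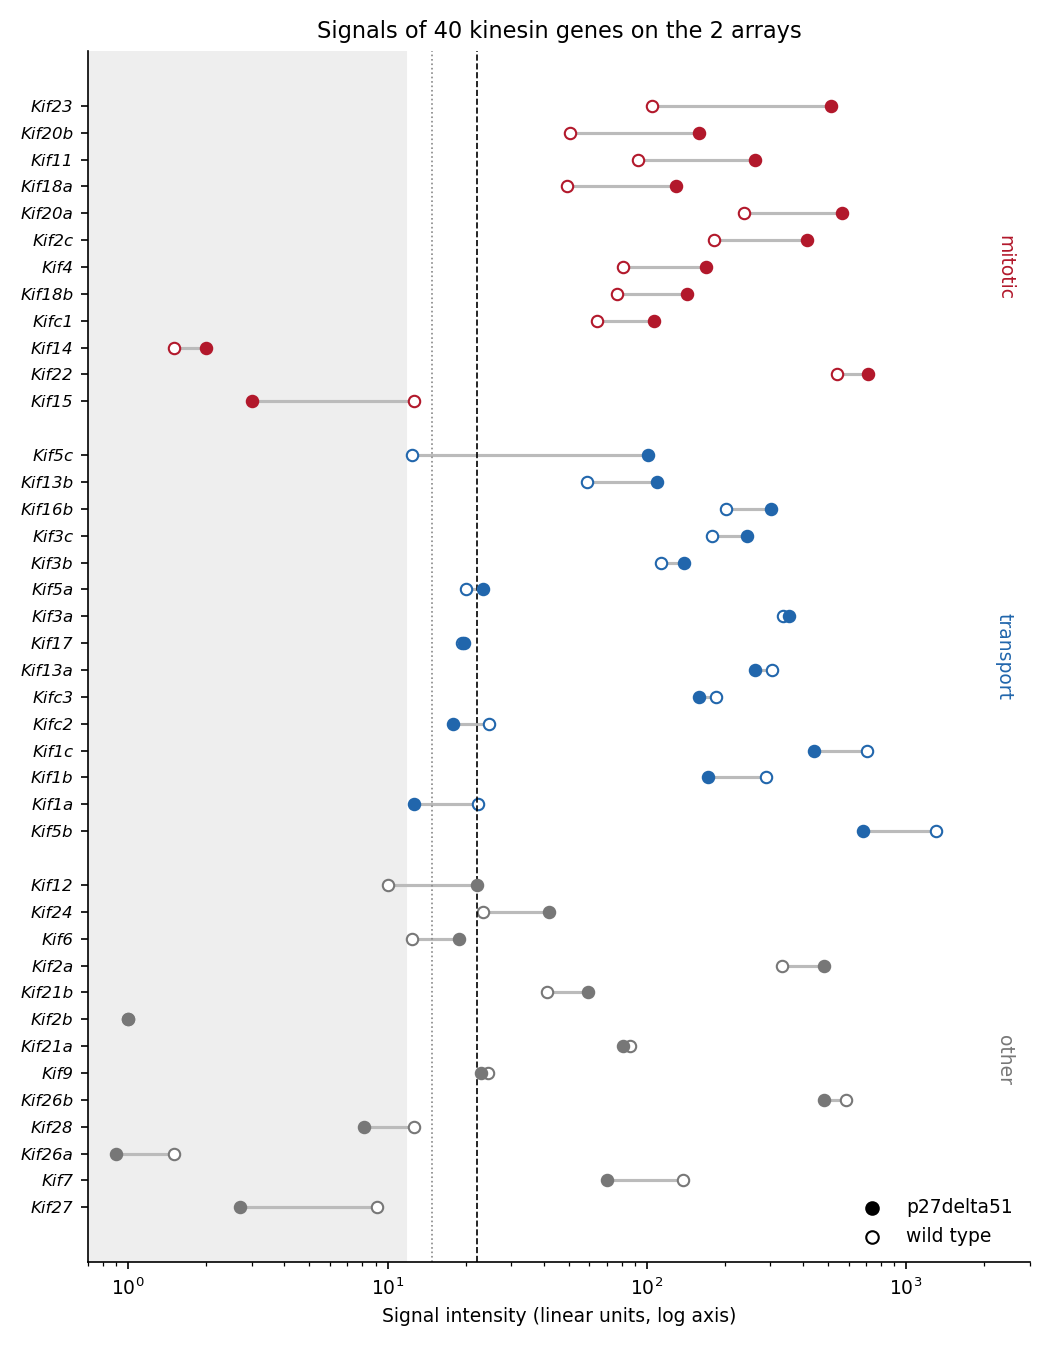
Signal intensity of the 40 kinesin genes on a log axis, 1 row per gene, with p27delta51 as filled and wild type as open points. The dashed line is the limit of 22.2, the dotted line the p27delta51 floor of 14.8 and the grey area the range below the wild type floor of 11.8. The 10 kept mitotic kinesins all have the filled point on the right, and the transport kinesins are split.

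Promoters of mitotic kinesins are shown here because the kept members differed in the same direction. CHR elements are also known to sit close to the start of such genes. RefSeq windows of the GRCm38.p6 build, from 250 bases before to 50 bases after each annotated start, were found for 32 of the 40 genes. They were searched on both strands for the CHR letters TTTGAA, for the NF-Y box CCAAT, which often stands a short way upstream of a CHR, and for TTTGGCGC, a form of the E2F site. In the lines below each stretch runs 5′ to 3′ along the gene from 100 bases before to 30 bases after its start, and capitals mark a match of any of these on either strand. The first 5 are mitotic kinesins with a CHR match, and Kif18a is one without.
Kif23: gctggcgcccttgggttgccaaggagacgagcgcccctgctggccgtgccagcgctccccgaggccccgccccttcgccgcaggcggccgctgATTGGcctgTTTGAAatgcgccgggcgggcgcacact
Kif20b: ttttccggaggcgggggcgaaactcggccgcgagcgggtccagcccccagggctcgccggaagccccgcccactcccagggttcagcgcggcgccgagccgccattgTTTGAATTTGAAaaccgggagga
Kif11: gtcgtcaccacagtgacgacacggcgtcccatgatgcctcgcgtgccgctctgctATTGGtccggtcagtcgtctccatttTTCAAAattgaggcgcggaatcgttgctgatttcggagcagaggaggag
Kif22: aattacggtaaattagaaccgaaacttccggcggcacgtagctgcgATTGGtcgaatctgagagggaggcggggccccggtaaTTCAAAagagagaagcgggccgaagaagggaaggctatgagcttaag
Kif4: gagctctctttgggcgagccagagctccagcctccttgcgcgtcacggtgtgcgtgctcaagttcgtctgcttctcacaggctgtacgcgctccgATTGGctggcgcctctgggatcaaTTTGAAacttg
Kif18a: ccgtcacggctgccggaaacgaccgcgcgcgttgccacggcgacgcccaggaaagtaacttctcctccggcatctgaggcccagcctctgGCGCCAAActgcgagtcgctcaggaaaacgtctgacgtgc
They lie at chr9:61946770-61946899 (minus strand) for Kif23, chr19:34922258-34922387 (plus) for Kif20b, chr19:37376282-37376411 (plus) for Kif11, chr7:127042391-127042520 (minus) for Kif22, chrX:100625965-100626094 (plus) for Kif4 and chr2:109280638-109280767 (plus) for Kif18a. In Kif23 the CHR match began at base 3 after the start, with an NF-Y box 7 bases before the start. Kif20b held 2 CHR matches side by side, which began at bases 8 and 14 after the start. Those of Kif11 and Kif22 began 19 and 17 bases before the start, each with an NF-Y box further upstream. Kif18a had no CHR match and an E2F match 10 bases before its start.

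For contrast, the same stretch is shown for Kif1c and Kif5c of the transport group and for Kif7, and none of the 3 holds a match of any kind. Some members of the transport and other groups that are not shown do hold matches, as counted below.
Kif1c: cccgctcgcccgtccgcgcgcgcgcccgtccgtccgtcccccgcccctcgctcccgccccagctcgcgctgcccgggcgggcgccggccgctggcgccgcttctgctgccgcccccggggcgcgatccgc
Kif5c: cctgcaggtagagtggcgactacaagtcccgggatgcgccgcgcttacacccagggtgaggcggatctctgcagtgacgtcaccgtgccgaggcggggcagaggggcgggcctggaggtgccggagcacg
Kif7: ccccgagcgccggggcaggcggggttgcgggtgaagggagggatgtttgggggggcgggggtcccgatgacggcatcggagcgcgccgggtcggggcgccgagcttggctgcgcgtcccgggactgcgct
These lie at chr11:70700448-70700577 (plus) for Kif1c, chr2:49619186-49619315 (plus) for Kif5c and chr7:79715678-79715807 (minus) for Kif7. Over the whole window of 300 bases a CHR match was found in 10 of 11 mitotic, 1 of 10 transport and 2 of 11 other kinesin genes that had a window, beside 17.9% of all 32851 promoter windows. Within the shown stretch the counts were 8, 1 and 2 genes, beside 7.15% of all windows. Those outside the mitotic group were Kif1a of the transport group and Kif26b and Kif27 of the others. Kif26b was kept and lower in p27delta51, at 482 against 586 in wild type, with a CHR match that began 9 bases before its start. Kif14 and Kif15, which were not kept, are among the mitotic genes with a window, and Kif20a had none. An NF-Y box lay in the whole window of 7 mitotic, 3 transport and 5 other kinesin genes, beside 37.4% of all windows. The E2F letters were found in Kif15 and Kif18a, beside 0.514% of all windows, and in no transport or other kinesin. In Kif20b the pair of CHR matches abut, and no match of one motif overlapped a match of another in the stretches shown. A match of these letters is a description of the sequence and was not tested for binding.

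**Figure D2:**
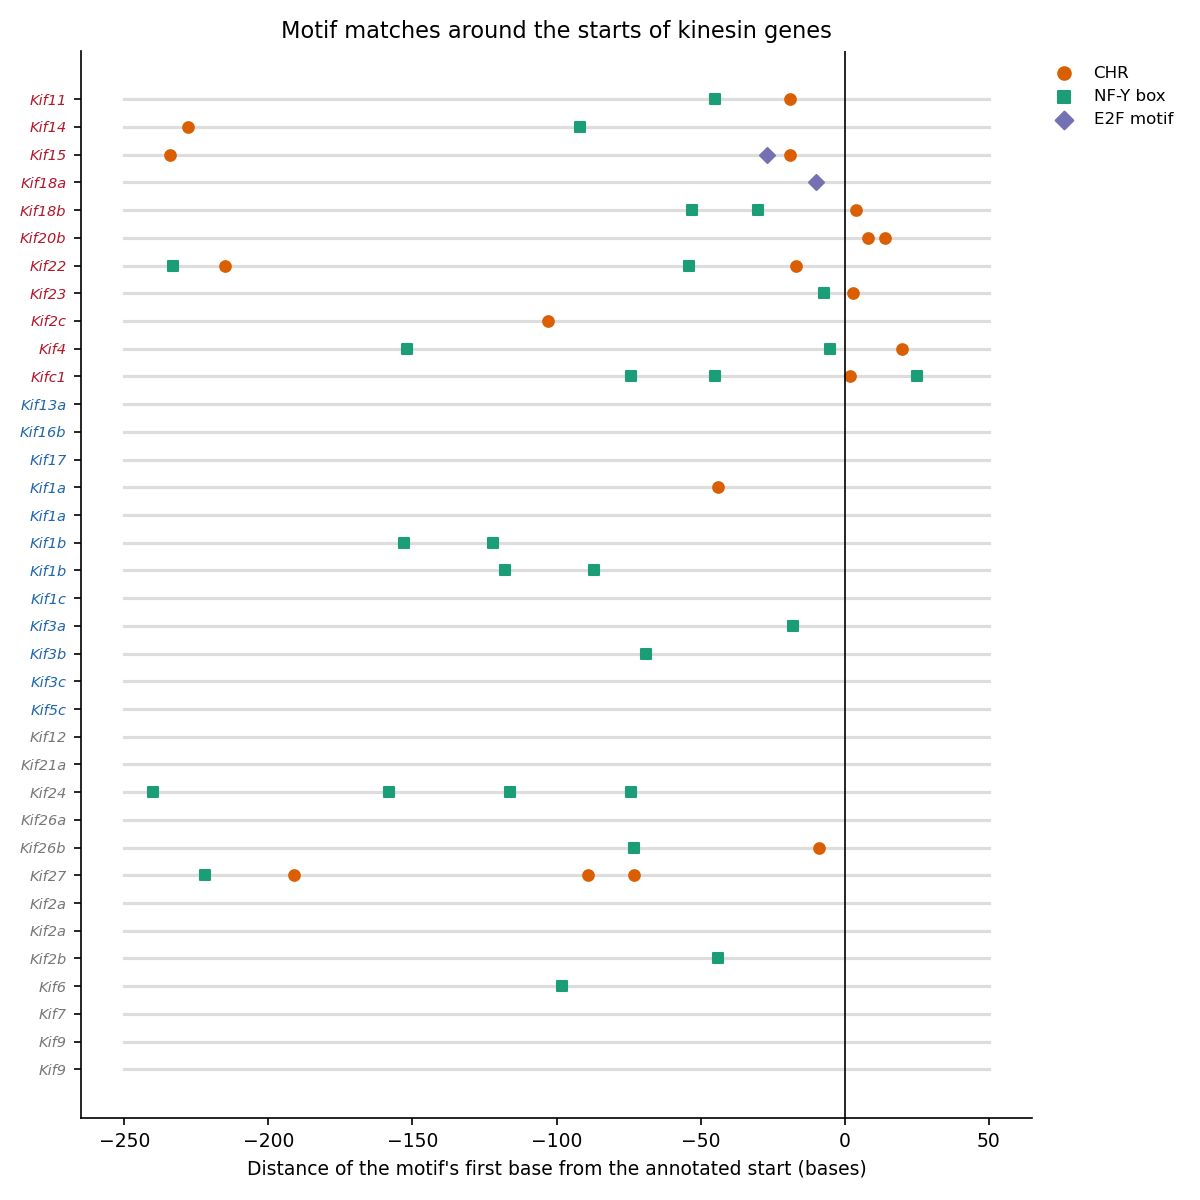
Position of each motif match relative to the annotated start, in bases, for each kinesin promoter window (names in red for mitotic, blue for transport and grey for other kinesins, a gene with 2 annotated starts on 2 rows). In 8 mitotic genes a CHR match lies between 100 bases before and 30 bases after the start, and Kif1a is the transport gene with one.

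Kinesins of the midzone and cytokinesis were higher in p27delta51. Kif23 (MKLP1), which bundles midzone microtubules as part of centralspindlin, gave 511 in p27delta51 against 105 in wild type. That is 4.86-fold higher in p27delta51, and its other bright probe set gave 137 against 41.4. Kif20b, a midzone motor also called MPP1, gave 159 in p27delta51 against 50.6 in wild type, 3.15-fold higher. Kif20a (MKLP2), which carries the chromosomal passenger complex to the midzone, gave 565 in p27delta51 against 237 in wild type, 2.38-fold higher. Kif4, a chromosome-bound motor that also limits the length of midzone microtubules, gave 169 in p27delta51 against 81.0 in wild type, 2.08-fold higher. Kif4 lies on the X chromosome, whose 355 kept genes had a median log2 difference of 0.19.

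Kinesins that build the spindle or act on its microtubule ends were also higher in p27delta51. Kif11 (Eg5), which slides spindle poles apart, gave 262 in p27delta51 against 92.2 in wild type, 2.84-fold higher, and its other 2 probe sets had log2 differences of 1.17 and 1.23. Kif18a, which dampens chromosome movements at microtubule plus ends, gave 130 in p27delta51 against 49.3 in wild type, 2.63-fold higher. Kif2c (MCAK), which takes microtubule ends apart at centromeres, gave 413 in p27delta51 against 181 in wild type in its brightest probe set. That probe set is of a kind that can cross-hybridise. Its log2 difference was 1.19 in that probe set and 0.90 and 0.82 in the other bright ones, which fall short of 2-fold. Kif18b, a partner of Kif2c at astral microtubule ends, gave 143 in p27delta51 against 77.0 in wild type, 1.86-fold higher. Kifc1 (HSET), a minus-end motor that focuses spindle poles, gave 107 in p27delta51 against 64.5 in wild type, 1.66-fold higher. Its single probe set is of a kind that can detect several transcripts, and Kifc5b is a closely related gene, so the Kifc1 value is uncertain.

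Kif22 (Kid), which pushes chromosome arms away from the poles, was the member whose probe sets differed most in size among the mitotic group. Its brightest probe set, of a kind that can cross-hybridise, gave 716 in p27delta51 against 543 in wild type, a log2 difference of 0.40. The other 2 gave 338 against 138 and 167 against 59.4, with log2 differences of 1.29 and 1.49. Thus 2 of 3 readings of Kif22 were above 2-fold while the brightest was 1.32-fold. Over all mitotic kinesins, 17 of 17 bright probe sets were higher in p27delta51, beside 53.9% of all bright probe sets with 1 symbol, and 12 were higher by 2-fold or more, beside 9.96%. Kif14 and Kif15, motors of cytokinesis and of the spindle, were each read by 1 dim probe set. Kif14 gave 2.0 in p27delta51 against 1.5 in wild type, both below the floor. Kif15 gave 3.0 in p27delta51, below the floor, and 12.7 in wild type, just above it, so neither gene has a usable difference here.

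**Figure D3:**
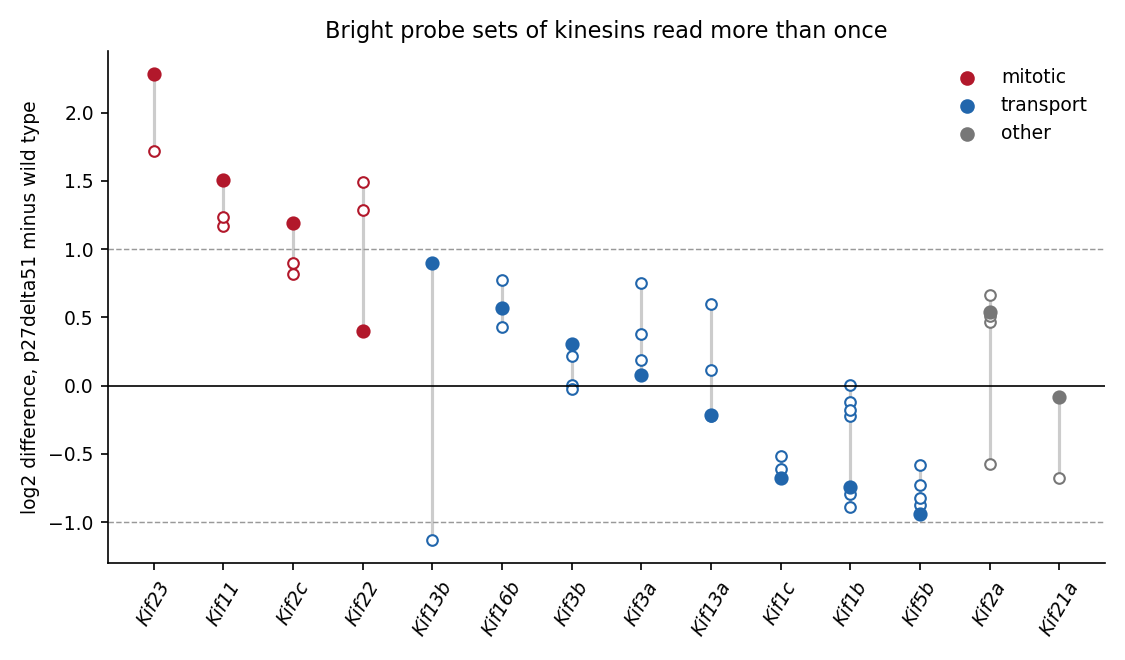
Log2 difference (p27delta51 minus wild type) of every bright probe set of the 14 kinesins with at least 2 of them, with the chosen probe set filled and the others open. Dashed lines mark 2-fold. The 4 mitotic kinesins lie above 0 in every probe set, Kif5b and Kif1c below 0 in every one, and Kif13b has 1 on each side.

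Proliferation markers were higher in p27delta51 along with the mitotic kinesins. Mki67, the Ki-67 gene, gave 765 in p27delta51 against 243 in wild type, 3.14-fold higher. Top2a, a topoisomerase gene of dividing cells, gave 1177 in p27delta51 against 522 in wild type, and Pcna, the replication clamp gene, 2935 against 1417. A second bright probe set of Top2a gave 55.4 in p27delta51 against 48.7 in wild type, 1.14-fold higher. Read from their brightest probe sets, all 4 measured markers of the list were at least 2-fold higher, with summed signals of 6265 in p27delta51 against 2811 in wild type. Their part in the kinesin differences was not tested.

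Proteins known to act with mitotic kinesins were higher as well. All 13 genes of that list were kept and higher in p27delta51, beside 55.6% of all kept genes. The median log2 difference was 1.06, and 7 genes reached 2-fold, beside 10.8% of all kept genes. Cenpe, the kinesin of the kinetochore, whose symbol lies outside the rule, gave 341 in p27delta51 against 94.6 in wild type, 3.60-fold higher. Ect2, which centralspindlin brings to the midzone to start furrowing, gave 576 in p27delta51 against 198 in wild type, 2.91-fold higher. Of the passenger complex genes, Incenp gave 1006 in p27delta51 against 394 in wild type and Cdca8 507 against 206. The log2 differences of the list ran from 0.70 to 1.85.

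Transport kinesins showed no common direction, and members of a single family went opposite ways. Only Kif5c was at least 2-fold higher and none was at least 2-fold lower, beside 10.8% and 8.77% of all kept genes. Kif5c entered the kept genes only through its p27delta51 signal, the higher of the pair. The split within the kinesin-1 family rests on this member. Kif5b, the kinesin-1 heavy chain found in most tissues, gave 681 in p27delta51 against 1305 in wild type, 1.92-fold lower. Its 5 bright probe sets were all lower, with log2 differences of -0.94 to -0.58. Kif5c, a kinesin-1 heavy chain known mainly from neurons, gave 101 in p27delta51 against 12.4 in wild type. The 8.18-fold difference is approximate, since the wild type signal lies just above its floor of 11.8, and the other 3 probe sets of Kif5c gave signals of 9.1 or less on both arrays. Kif5a, the third kinesin-1 heavy chain and also neuronal, gave 23.3 in p27delta51 against 20.1 in wild type and was not kept.

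The summed signal of neuronal markers was lower in p27delta51, where Kif5c was higher. Of 8 markers, 4 were above the floor in p27delta51 and 5 in wild type, with summed signals of 215 in p27delta51 against 1565 in wild type. Snap25, Nefl and Nefm were at or below the floor on both arrays. Most of the wild type sum came from Map2, a microtubule-associated protein gene, at 56.8 in p27delta51 against 1378 in wild type. Their part in the Kif5c difference was not tested.

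Kinesin-3 motors, which carry vesicles and endosomes, also split. Kif1c gave 442 in p27delta51 against 706 in wild type, 1.60-fold lower, and its 3 bright probe sets lay between -0.68 and -0.51 on the log2 scale. Kif1b, which carries mitochondria and synaptic vesicle precursors, gave 172 in p27delta51 against 288 in wild type in its brightest probe set, 1.67-fold lower. Its 7 probe sets ran from -0.89 to 0.00, so the size of the difference depends on the probe set read. Kif16b, a motor of early endosomes, gave 301 in p27delta51 against 203 in wild type, 1.48-fold higher, with all 3 probe sets higher. The dimmest of them, at 29.1 in p27delta51 against 17.0 in wild type, was bright only through its p27delta51 signal. Kif13b gave 110 in p27delta51 against 58.7 in wild type, 1.87-fold higher. Its second bright probe set went the other way, at 14.2 in p27delta51, below the floor, against 31.1 in wild type. That probe set was bright only through its wild type signal. Kif13a gave 261 in p27delta51 against 304 in wild type, with its 5 probe sets between -0.22 and 0.60. Kif1a, a neuronal vesicle motor, gave 12.7 in p27delta51, below the floor, and 22.4 in wild type, and was not kept.

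Kinesin-2 motors, which carry cargo in the cytoplasm and build cilia, had no kept member that was 2-fold apart. Kif3a gave 353 in p27delta51 against 335 in wild type, and its 4 probe sets lay between 0.08 and 0.76 on the log2 scale. Kif3b, its usual partner, gave 139 in p27delta51 against 113 in wild type, with probe sets from -0.02 to 0.30. Kif3c gave 243 in p27delta51 against 179 in wild type, 1.36-fold higher. Kif17 gave 19.7 in p27delta51 against 19.3 in wild type, below the limit. Among the minus-end motors of the kinesin-14 family, Kifc3 gave 159 in p27delta51 against 185 in wild type, and Kifc2 gave 17.9 against 24.6 and was not kept.

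The sign of the transport median was not stable. It was 0.08 as measured, -0.22 without the 6 members known mainly from neurons, -0.22 with a stricter limit on brightness and -0.10 with the authors' deposited table. The 6 include genes that were not kept, such as Kif1a and Kif5a, so fewer than 6 values were left out. Over all bright probe sets of the group, 16 were higher in p27delta51 and 20 lower, beside 53.9% and 46.0% of all bright probe sets.

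Partners of transport kinesins lay on both sides too. Of 19 kept genes, 9 were higher and 10 lower in p27delta51, beside 55.6% and 44.3% of all kept genes. By 2-fold or more, 1 was higher and 2 were lower, beside 10.8% and 8.77%. Of the 2 lower genes, Mapk8ip2 was kept only through its wild type signal, the higher of the pair. The median log2 difference of the 19 genes was -0.02. Averaging every probe set of a gene turned that median to 0.10. Fez1, a kinesin-1 adaptor, gave 268 in p27delta51 against 123 in wild type, 2.18-fold higher. Mapk8ip1, a scaffold that binds kinesin-1 light chains, gave 81.0 in p27delta51 against 41.7 in wild type, a log2 difference of 0.96. Kifap3, which links the Kif3 motors to cargo, gave 932 in p27delta51 against 481 in wild type, and was chosen for naming after its value was seen. On the other side, the kinesin light chain gene Klc3 gave 63.0 in p27delta51 against 204 in wild type, 3.23-fold lower. Mapk8ip2, a related scaffold, gave 13.1 in p27delta51, below the floor, and 33.0 in wild type, which bounds the fold at 2.23 or more on the lower side.

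Dynein is the motor that runs the opposite way to most kinesins, and dynactin is its cofactor. Of their 20 kept genes, 9 were higher and 11 lower in p27delta51, beside 55.6% and 44.3% of all kept genes. The median log2 difference was -0.20, beside 0.08 over all kept genes. By 2-fold or more, 1 was higher and 0 were lower, beside 10.8% and 8.77%. The exception in size was Dync1i1, a dynein intermediate chain known mainly from neurons, at 405 in p27delta51 against 63.6 in wild type, 6.37-fold higher. Dynll2, a dynein light chain gene, gave 641 in p27delta51 against 1234 in wild type, 1.93-fold lower. Dctn4, a dynactin subunit gene, was 1.84-fold lower, and Bicd2, a cargo adaptor gene, gave 676 in p27delta51 against 994 in wild type.

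**Figure D4:**
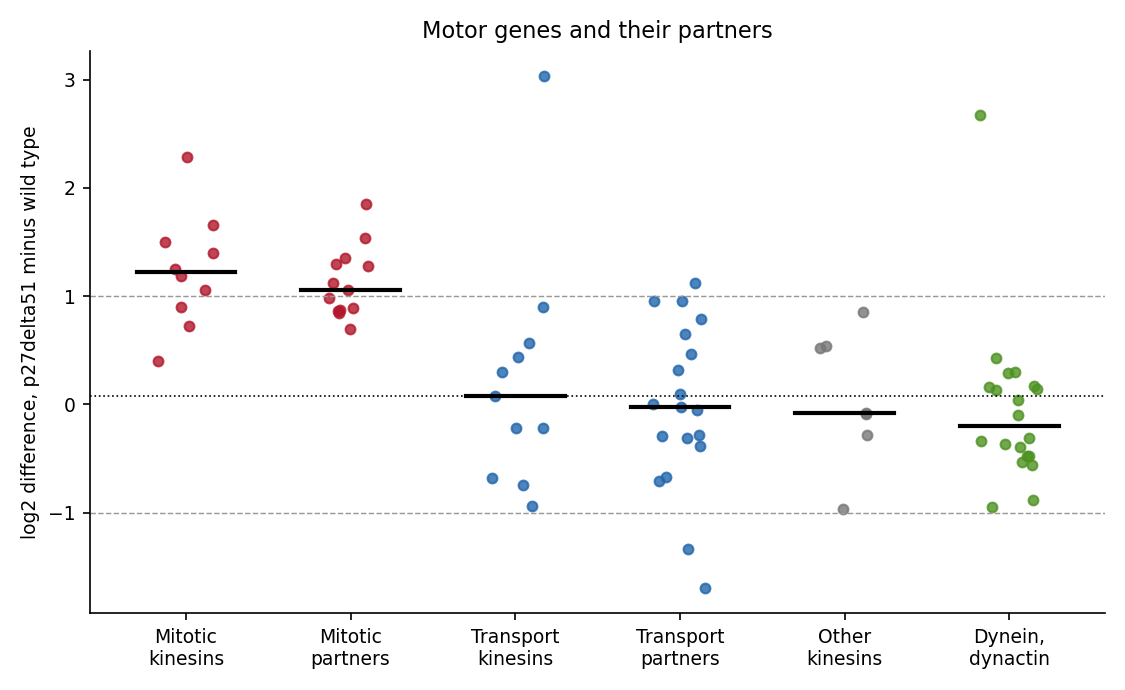
Log2 difference (p27delta51 minus wild type) of each kept gene of the 3 kinesin groups and of 3 lists of related genes, with the list median as a bar. The dotted line is the median of all kept genes (0.08) and dashed lines mark 2-fold. Mitotic kinesins and their partners all lie above 0, and the points at the top of the transport and dynein columns are Kif5c and Dync1i1.

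Among the other kinesins 0 of the 7 kept members were 2-fold higher and 0 were 2-fold lower, beside 10.8% and 8.77% of all kept genes, so with 7 genes these counts lie near the background. Their median was -0.08, and it was 0.13 with the stricter limit on brightness. Kif7, which acts at the tip of the primary cilium in Hedgehog signalling, gave 70.5 in p27delta51 against 138 in wild type, 1.96-fold lower in its only probe set. Kif24, which shortens microtubules at centrioles and holds back cilium growth, gave 42.1 in p27delta51 against 23.3 in wild type, 1.81-fold higher but near the floor. Kif2a, a microtubule depolymerase of the same family as Kif2c, gave 484 in p27delta51 against 333 in wild type. It was 1.45-fold higher in that probe set, and 3 further probe sets had log2 differences of 0.47 to 0.66, while the dimmest gave -0.57. The dimmest, at 18.7 in p27delta51 against 27.8 in wild type, was bright only through its wild type signal. Kif21b and Kif21a, which restrain microtubule growth, gave 59.1 against 41.3 and 81.2 against 86.0. Kif21a had a second bright probe set at 63.1 in p27delta51 against 100.9 in wild type, 1.60-fold lower. The authors' deposited table lists that probe set at a log2 ratio of -0.1 with a no change call, and Kif21b at 0. Kif26b, of the kinesin-11 family, gave 482 in p27delta51 against 586 in wild type, 1.22-fold lower. Kif9, known from motile cilia and sperm, gave 23.0 in p27delta51 against 24.4 in wild type. Of the 4 measured markers of ciliated epithelium, 3 were above the floor in p27delta51 and 2 in wild type, with summed signals of 63.3 and 56.2. The brightest, Ccdc39, was itself near the floor, at 27.6 in p27delta51 against 24.9 in wild type, and was the only one kept.

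In all, 12 kinesin genes did not reach the limit. Kif2b, Kif14, Kif26a and Kif27 were at or below the floor on both arrays. Kif5a, Kif6, Kif17 and Kifc2 were above it on both, and Kif1a, Kif12, Kif15 and Kif28 on 1 array only. Kif12 gave 22.1 in p27delta51 against 10.0 in wild type, at least 1.87-fold higher, but its second probe set gave 2.3 against 11.2. Kif19a is the kinesin symbol of the gene table that has no value here.

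For each probe set the authors' deposited table also lists p27delta51 over wild type as a log2 ratio, with a change call. The calls compare the 2 arrays, not the genotypes. In the authors' deposited table, 8 of 10 kept mitotic kinesins carried an increase call, beside 27.3% of all kept genes with an increase or marginal increase call, and 2 carried no change, beside 52.1%. The no change calls were those of Kif22 and Kif18b, each listed at 0.9 on the log2 scale by the authors' deposited table. Kifc1 was above 2-fold in the authors' deposited table, at 1.1 on that scale. Of the 11 transport kinesins, 3 carried an increase call (Kif5c, Kif13b and Kif16b), 3 a decrease call (Kif5b, Kif1b and Kif1c) and 5 no change in the authors' deposited table, beside 20.6% of all kept genes with a decrease or marginal decrease call. Kif3a counts as no change by its brightest probe set, listed at 0.1. Its probe sets listed at 0.6 and 0.7 carried increase calls, and that listed at 0.5 no change. Among the others, Kif2a was called increased and Kif7 decreased in the authors' deposited table.

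**Figure D5:**
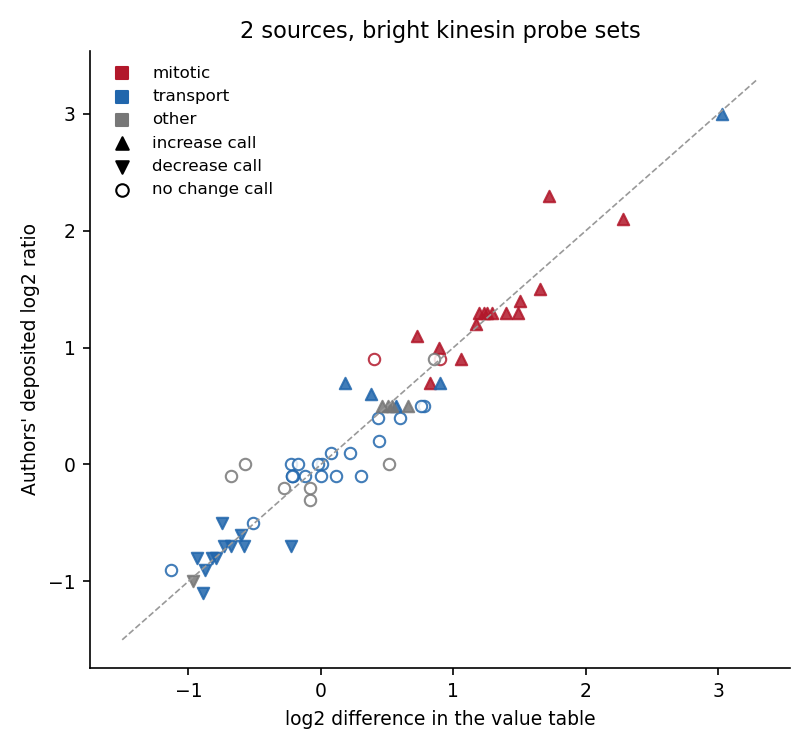
Log2 ratio of the authors' deposited table against the log2 difference of the value table (p27delta51 minus wild type) for the 65 bright probe sets of kinesin genes, coloured by group. Triangles pointing up are increase or marginal increase calls, triangles pointing down decrease calls and open circles no change, and the dashed line marks equality. Of the mitotic probe sets 15 of 17 carry an increase call, beside 24.1% of all bright probe sets.

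Repeat readings of a gene by other probe sets are technical and were the only check on size. Of the 14 kinesins read by several bright probe sets, 9 had no disagreement in direction. The SD between them had a median of 0.33 on the log2 scale, against 0.23 over 5316 genes with at least 2. The mitotic members of these 14 had all bright probe sets on the same side, and so did Kif5b, Kif1c, Kif16b, Kif3a and Kif21a. A probe set counts as bright by its mean, so a dim one can pass through its higher signal alone. That was so for the dimmest bright probe sets of Kif13b, Kif2a and Kif16b, so their directions are partly set by the limit. Those of Kif13b and Kif2a passed through wild type and went against the other readings.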

How the data were processed

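RNA of serum-starved MEFs was hybridised to 1 Affymetrix array per genotype, per the labels' protocols. The authors deposited signal intensity on a linear scale. The submitters' processing notes name RMA and affy, but RMA returns log2 values, so which program wrote these signals is unknown. The authors' second deposited table lists a log2 ratio, a change call and its p-value, per the file headers.

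Platform annotation gave 1 symbol to 34945 probe sets, several to 932 and none to 9160, and 64 were controls. Symbols were updated through the GRCm38.p6 gene table, and only probe sets with 1 symbol were used. No sample column was left out. The floor is the highest signal of 27 bacterial control probe sets on each array. Folds against a signal at or below it are bounds, and those within 3 times of it are approximate. Members, groups, lists and motifs were chosen with earlier results of these data known. Every kinesin could be named, and from each partner list the 4 kept genes with the largest difference. The alternatives were other normalizations, brightness limits, probe set choices, a pseudocount of 32, fold thresholds and group memberships. Scripts (Python 3.11.15, pandas 2.3.3, statsmodels 0.14.6) were tested on simulated data. The number of arrays limits the precision.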

Additional observations from a re-analysis of the deposited data

How the results depend on the processing

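Counts were held to a factor of 1.5 and log2 values to the median SD between probe sets of a gene, 0.23. The mitotic median was 1.02 to 1.30 over the alternatives run. The 2-fold mitotic count was 4 with the upper-quartile limit, which kept fewer genes, and otherwise 5 to 7. At the other thresholds the mitotic count was 9 at 1.5-fold and 2 at 3-fold. The mitotic minus transport difference was 1.47 with that limit, 0.91 with the mean of all probe sets, 1.40 with the authors' deposited table and 1.44 without the neuronal members. The transport median was -0.22 with the upper-quartile limit, -0.10 with the authors' deposited table and -0.22 without the neuronal members. The last of these, and the upper-quartile limit, left 0 transport kinesins 2-fold higher, since both leave out Kif5c. The median of the other kinesins was 0.13 with the upper-quartile limit and 0.22 without probe sets shared between transcripts, a setting added after the values were seen. The transport partner median was 0.10 with the mean of all probe sets and 0.16 with the mean of bright probe sets, also added later. The cause was not tested for these turns of sign. Median centring and the mean of all probe sets each made 1 transport and 1 other kinesin 2-fold lower. Quantile normalization, loess and the authors' deposited table made 1 other kinesin 2-fold lower. With no limit on brightness the counts took in 1 mitotic kinesin as lower (Kif15), 1 other kinesin as higher (Kif12) and 1 as lower (Kif27), each with a signal below the floor on at least 1 array, so no 2-fold difference was measured for them, and 2805 genes were higher and 2581 lower in all. The upper-quartile limit gave 559 and 461 genes in all, and log2 of the signal plus 32 gave 752 higher. At 1.5-fold, 2 transport kinesins were higher and 3 lower, 1 other kinesin was higher and 1 lower, and 2421 and 1773 genes in all. At 3-fold the counts over all genes were 533 and 581. No paired analysis was possible because each genotype has 1 array.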

Other observations

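Kifc5b, a kinesin gene whose symbol lies outside the rule and which is closely related to Kifc1, was read by 1 probe set of its own at 8.9 in p27delta51 and 1.5 in wild type, both below the floor.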
